A study of Homo sapiens with 12 samples.

Results

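The 9 genes described here encode inhibitors of mitogen-activated protein (MAP) kinase signalling: the phosphatase genes DUSP1, DUSP4, DUSP5 and DUSP6, the Sprouty genes SPRY1, SPRY2 and SPRY4, and the SPRED genes SPRED1 and SPRED2. They were chosen by name from the 28035 genes of a table of normalized reads, at a time when earlier results of these data were known, and all 9 passed the minimum of 10 mean normalized reads that 15990 genes met. The cells were OVCAR-3, an established human ovarian adenocarcinoma line of epithelial type and wild-type genotype, and all were treated for 6 h. There were 4 groups of 3 libraries each: the solvent DMSO, FC-A (Fusicoccin A, a fungal compound that stabilises complexes of 14-3-3 adapter proteins with their partners), the cytokine interferon alpha (IFNa), and both agents at once (Combination). No dose is given in the labels, and the results come from 1 cell line. Replicates are not stated to be separate cultures. The p-values therefore reflect the spread between samples as sequenced, and that spread may be technical.

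MAP kinases carry signals from growth factor receptors through RAS, RAF and MEK to ERK, and from stress and cytokine receptors to JNK and p38. Dual-specificity phosphatases (DUSPs) switch these kinases off by removing the activating phosphates. Sprouty and SPRED proteins act higher up, between the receptor and RAF, and transcripts of many of these inhibitors are made in response to ERK activity itself, which makes them feedback inhibitors.

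Reads assigned to genes came to between 31.2 M and 39.5 M per library, and the lowest number behind a value of any of the 9 genes was 80 reads. As a check of the IFNa label, 10 of 10 classical interferon target genes rose in both groups that received IFNa, among them IFIT1, an antiviral RNA-binding protein, 392.5-fold against DMSO. The ovarian epithelial markers EPCAM, PAX8, KRT7, KRT8, KRT18 and MUC16 were abundant in every library. Of the fibroblast markers, DCN was at 0 in all libraries but 1 and THY1 did not pass 12.4 reads, while with IFNa COL1A1 rose from 814.7 to 1676 mean reads (log2 fold change 1.03, limma adjusted p 8.97e-06) and COL1A2 fell from 78.1 to 44.6 (-0.81, adjusted p 0.00441). THY1, too low to test, averaged 8.22 reads with DMSO and 3.11 with IFNa. The leukocyte marker PTPRC did not pass 23.5 reads, the summed leukocyte markers ranged from 191 to 306 reads, and the endothelial markers VWF and CDH5 summed to between 242 and 324 reads in DMSO and between 136 and 189 with IFNa. The part of these markers in the results below was not tested. The first principal component of all tested genes (77.7% of the variance) separated the libraries with IFNa from those without, and on the second (6.51%) replicate 3 lay at the same end of each group. In bulk RNA, fewer cells with a transcript and less of it per cell cannot be told apart.

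All 9 genes rose with IFNa. Against DMSO the median log2 fold change of the 9 was 1.84, beside -0.0065 over all tested genes, and the single values ran from 0.44 for DUSP1 to 3.21 for SPRY4. All 9 passed the threshold (adjusted p below 0.05, limma with Benjamini-Hochberg adjustment over all tested genes), where 25.4% of all tested genes were called higher and 46.9% were called in either direction. No library with IFNa fell within the DMSO range for any of the 9, a separation upward that 30.4% of tested genes showed.

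Because the 9 genes rose together, the 250 bases before their RefSeq starts (build GRCh38.p14, 11 windows for 7 of the 9 genes) were searched on both strands for 5 motifs. These were the interferon-response element of ISGF3 and IRF factors (GAAANNGAA, in 6.88% of 35116 such promoters), the STAT site GAS (TTCNNNGAA, 6.57%), the AP-1 site (TGANTCA, 6.57%), the CREB and ATF site CRE (TGACGTCA, 1.65%) and an ETS site (CCGGAAG, 8.52%). The DUSP1 window held the CRE letters, from base -125 to base -118. The window of the second SPRY1 start held the GAS letters as TTCTTGGAA, from base -188 to base -180, and the ETS letters CCGGAAG, from base -67 to base -61. The other windows held none of the 5, which says only that these letters are not there. Shown are DUSP1, the gene that rose least, with capitals marking its motif match, and the first starts of SPRY1 and SPRY2, which hold none.
DUSP1, chr5:172771196-172771445, minus strand: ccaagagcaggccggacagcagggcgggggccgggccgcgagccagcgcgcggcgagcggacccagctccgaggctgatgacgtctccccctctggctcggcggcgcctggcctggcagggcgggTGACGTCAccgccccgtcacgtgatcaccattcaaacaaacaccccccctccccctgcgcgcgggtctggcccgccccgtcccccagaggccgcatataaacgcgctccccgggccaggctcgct
SPRY1, chr4:123396545-123396794, plus strand: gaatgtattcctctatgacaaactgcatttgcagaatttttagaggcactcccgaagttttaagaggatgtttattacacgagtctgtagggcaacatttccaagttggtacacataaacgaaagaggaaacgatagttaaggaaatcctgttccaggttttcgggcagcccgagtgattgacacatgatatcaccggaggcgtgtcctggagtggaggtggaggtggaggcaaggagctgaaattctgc
SPRY2, chr13:80341127-80341376, minus strand: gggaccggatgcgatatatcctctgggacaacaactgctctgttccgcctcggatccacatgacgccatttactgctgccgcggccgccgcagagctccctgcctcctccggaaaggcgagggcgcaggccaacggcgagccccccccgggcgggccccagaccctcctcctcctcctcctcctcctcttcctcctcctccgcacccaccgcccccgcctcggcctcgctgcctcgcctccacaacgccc

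DUSP5, which encodes a nuclear phosphatase selective for ERK, was the most abundant of the 9 per length of exon in every group. Its normalized reads were 1389.5, 1322 and 1319.6 in the DMSO libraries and 5882, 6599 and 6169 in the IFNa libraries. The lowest IFNa library held 4.23 times the reads of the highest DMSO library. The mean rose from 1344 ± 39.6 to 6217 ± 361 (SD, n = 3 each), a 4.62-fold change (95% interval 4.19 to 5.10) with a limma adjusted p of 1.87e-12. DUSP6, a cytoplasmic phosphatase also selective for ERK, was the least abundant per length of exon without IFNa. It stood at 104.3, 96.6 and 107.7 reads with DMSO and at 562, 531 and 595 with IFNa. The groups were far apart, and the change was 5.42-fold (4.62 to 6.38, limma adjusted p 2.03e-10). DUSP5 and DUSP6 ranked 285 and 238 from the top among the 15990 tested genes by fold change. The processed pseudogenes DUSP5P1 and DUSP5P2, whose reads could be confused with those of DUSP5, stayed at or below 4.77 and 7.26 reads.

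DUSP4 encodes a nuclear phosphatase that acts on ERK as well as on JNK and p38. Its reads were 233, 203 and 212 with DMSO and 769, 851 and 715 with IFNa. The ranges lay well apart, with a 3.59-fold rise (3.00 to 4.30, limma adjusted p 1.74e-08). DUSP1, the stress-inducible nuclear phosphatase with a preference for p38 and JNK, changed least. Its reads were 217.7, 200.9 and 214.5 with DMSO, and 315.1, 341.7 and 218.2 with IFNa. Replicates 1 and 2 with IFNa lay far above the DMSO libraries, whereas replicate 3 lay only just above the highest of them. The rise was 1.36-fold (1.1 to 1.67, limma adjusted p 0.0185). The call was lost without DMSO replicate 2 (adjusted p 0.0618), IFNa replicate 1 (0.0788) or IFNa replicate 2 (0.0925), and without IFNa replicate 3 the log2 fold change grew from 0.44 to 0.64 (adjusted p 0.000247).

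**Figure D1:**
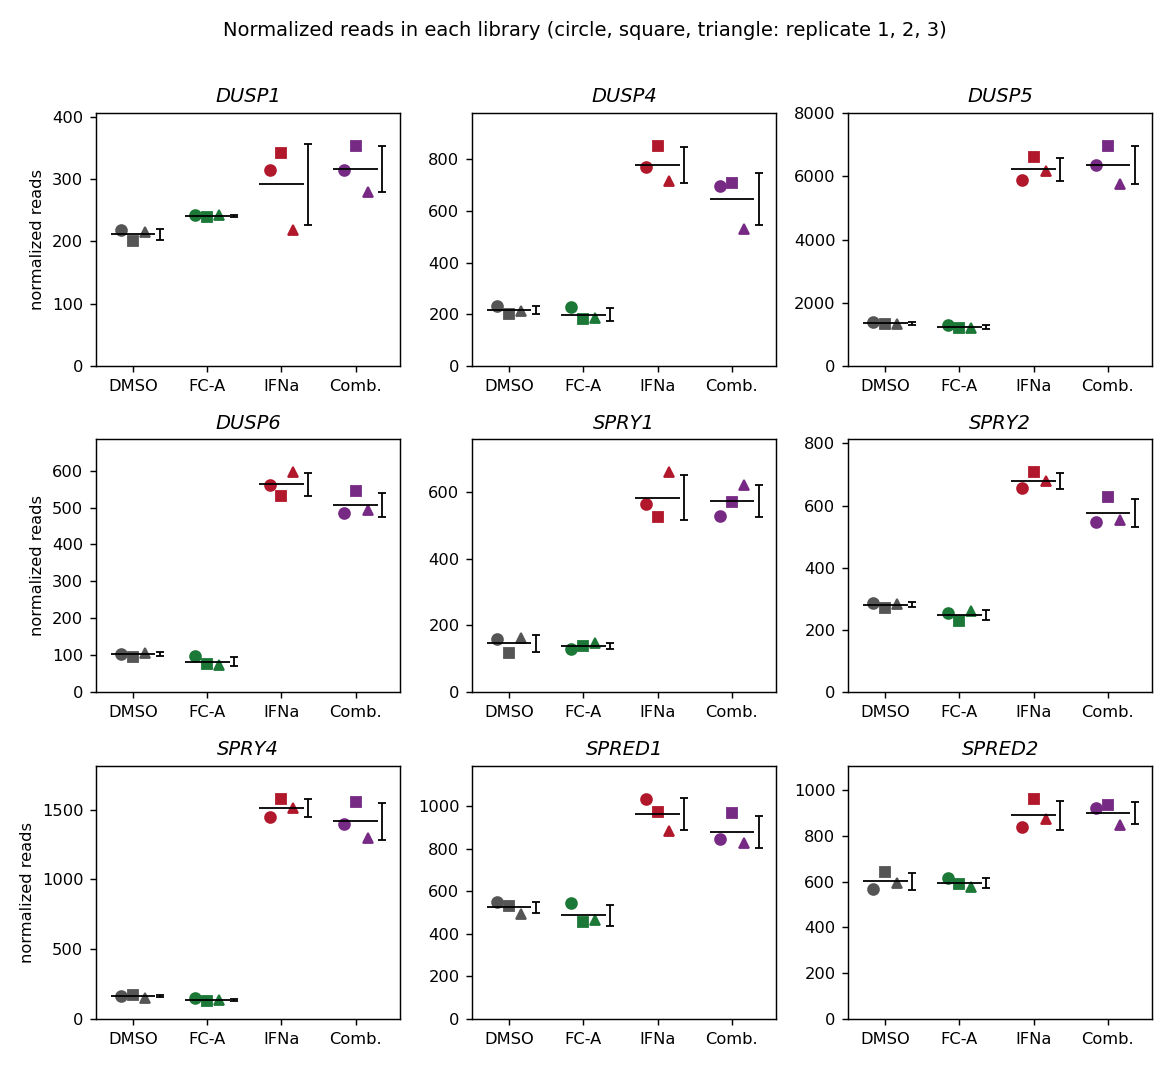
Normalized reads (vertical axes, each starting at 0) of the 9 genes in the 4 groups, with one point per library (circle, square and triangle for replicates 1, 2 and 3), the group mean as a line and ± 1 SD as a bar (n = 3). All 9 panels step up in the IFNa and Combination groups, and the DUSP1 panel shows IFNa replicate 3 at 218.2 reads beside 315.1 and 341.7.

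The 3 Sprouty genes rose by different amounts. SPRY4, an inhibitor of receptor signalling to RAS and ERK, held 165, 168 and 153.5 reads with DMSO and 1449, 1577 and 1514.5 with IFNa. The lowest IFNa library had 8.61 times the reads of the highest DMSO library. The mean rose from 162 ± 7.81 to 1514 ± 64.0 (SD, n = 3 each), 9.28-fold (8.23 to 10.5, limma adjusted p 2.18e-13), and this was the largest rise of the 9 genes, at rank 149 of 15990. SPRY1, which restrains growth factor signalling in the developing kidney among other tissues, held 159.6, 118 and 164 reads with DMSO and 562, 525 and 657 with IFNa. The 3.96-fold rise (3.27 to 4.78, limma adjusted p 1.37e-08) was much larger than the spread within either group. SPRY2, which binds the ubiquitin ligase CBL, held 287.5, 273 and 284 reads with DMSO and 656, 706 and 678 with IFNa. It rose 2.41-fold (2.14 to 2.71, limma adjusted p 9.07e-09), again with no overlap. SPRY4-AS1, the antisense gene that overlaps SPRY4, did not pass 12 reads in any library.

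SPRED1 and SPRED2 bring the RAS inactivator neurofibromin to the membrane. SPRED1 held 548, 530.0 and 495 reads with DMSO and 1033, 973 and 880.5 with IFNa, a 1.83-fold rise (1.61 to 2.09, limma adjusted p 1.86e-06). SPRED2 held 566, 643 and 593 reads with DMSO and 838, 961 and 873 with IFNa, a 1.48-fold rise (1.33 to 1.65, limma adjusted p 1.67e-05). In both genes the IFNa libraries all lay above the DMSO libraries, although by a smaller margin than for the Sprouty genes. The remaining relatives did not pass the test. SPRY3 averaged 87.7 ± 24 reads with DMSO and 89.9 ± 16 with IFNa, and SPRED3 averaged 23.7 ± 3.56 and 27.4 ± 8.34 (SD, n = 3 each). Their log2 fold changes were 0.05 and 0.17, and the groups overlapped for both.

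Levels were compared between genes after division by exon length (union of GENCODE 29 exons, in reads per kb). This is approximate, because the exons in use in these cells were not measured, and close ranks are uncertain. With DMSO, DUSP5 stood at 514 reads per kb, followed by SPRED2 at 116.5, DUSP1 at 104.5, SPRY2 at 92.6, SPRED1 at 63.5, SPRY1 at 37.1, DUSP4 at 29.8, SPRY4 at 24.7 and DUSP6 at 22.2. Among neighbours in that order, SPRY1 and DUSP4 were the one pair whose libraries overlapped. With IFNa the level of DUSP5 was 2377 reads per kb, SPRY4 moved from rank 8 to rank 2 at 230.6, and SPRY2 (223.8) overlapped with it. SPRED2 (172.8), SPRY1 (146.7) and DUSP1 (144.5) followed with overlapping libraries, and then DUSP6 (121.5), SPRED1 (116.5) and DUSP4 (107.2), which overlapped with each other and with DUSP1. Within the Sprouty family, SPRY4 supplied 16.1% ± 1.48 of the reads per kb of the 3 genes with DMSO and 38.4% ± 1.2 with IFNa (SD, n = 3 each). The share of SPRY2 went from 60.0% ± 1.59 to 37.2% ± 1.20, while that of SPRY1 was 23.9% ± 3.04 and 24.4% ± 2.43. Among the 4 phosphatases, DUSP5 supplied 76.7% ± 0.624 with DMSO and 86.4% ± 1.07 with IFNa, and DUSP1 supplied 15.6% ± 0.404 and 5.24% ± 1.07.

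**Figure D2:**
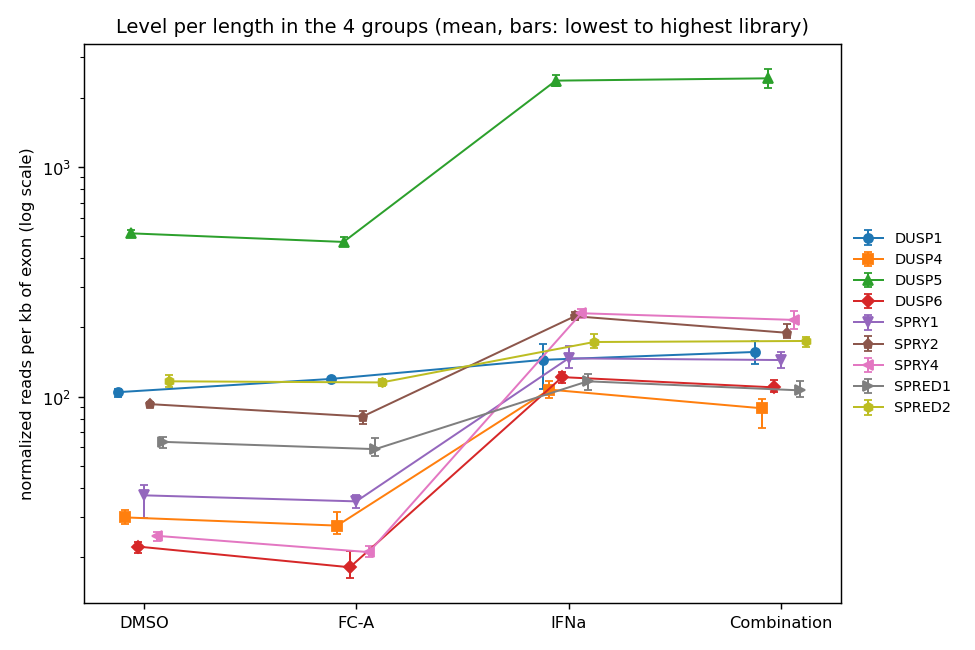
Mean normalized reads per kb of exon (log axis) of each of the 9 genes in the 4 groups, with bars from the lowest to the highest library (n = 3) and lines joining the means of one gene. SPRY4 goes from 24.7 with DMSO to 230.6 with IFNa and crosses 6 of the other genes, while DUSP5 stays above all others.

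IFNa also raised the 9 genes in the presence of FC-A. Against FC-A alone the Combination was higher for all 9 genes, with a median log2 fold change of 1.69 beside -0.009 over all tested genes, where limma called 26.6% of all tested genes higher and 48.9% in either direction. SPRY4 had 147, 131 and 135 reads with FC-A and 1398, 1556 and 1294 in the Combination, a 10.2-fold difference (9.03 to 11.5, limma adjusted p 1.25e-13). DUSP6 followed with 98.01, 77.3 and 75.4 reads with FC-A and 485.5, 545 and 493 in the Combination, a 6.05-fold difference. The smallest differences were those of SPRED1 (1.80-fold), SPRED2 (1.51-fold) and DUSP1 (1.30-fold). DUSP1 was again the marginal call (limma adjusted p 0.0351, log2 fold change 0.38). It lost the call under quantile normalization (adjusted p 0.0732) and without FC-A replicate 1 (0.0605), 2 (0.0846) or 3 (0.0616) or Combination replicate 1 (0.0745) or 2 (0.139). The adjusted p of DUSP1 over all alternatives ran from 0.00214 to 0.139.

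The Combination was also above DMSO for all 9 genes, where 26.1% of tested genes were called higher and 48.3% in either direction. This comparison shares its DMSO libraries with that of IFNa alone, so the values are given side by side. The log2 fold changes, IFNa first and the Combination second, were 3.21 and 3.11 for SPRY4, 2.44 and 2.29 for DUSP6, and 2.21 and 2.24 for DUSP5. They were 1.84 and 1.57 for DUSP4, 1.27 and 1.03 for SPRY2, 0.87 and 0.74 for SPRED1, and 0.57 and 0.58 for SPRED2. SPRY1 had 1.98 and 1.96, and DUSP1, whose Combination libraries held 314.5, 353 and 279.7 reads, had 0.44 and 0.57 (limma adjusted p 0.00368 for the Combination).

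FC-A alone changed none of the 9 past the threshold. Of 15990 tested genes 48 were called, 0.3%, and none of the 9 was among them in limma, edgeR or DESeq2. At an unadjusted p under 0.05 limma found 3 of the 9, all lower with FC-A, edgeR 2 and DESeq2 1, and 8.61% of all tested genes passed that unadjusted limit in limma. DUSP6 had a log2 fold change of -0.31 (95% interval -0.54 to -0.07, adjusted p 0.406), with FC-A replicate 1 (98.01 reads) inside the DMSO range and the other libraries below it. SPRY4 had -0.23 (-0.41 to -0.06, adjusted p 0.381), and its FC-A libraries (131 to 147 reads) all lay below the DMSO libraries (153.5 to 168). SPRY2 had -0.18 (-0.35 to -0.01, adjusted p 0.545), with 254, 229.9 and 262 reads, all below DMSO. DUSP5 had -0.12 (-0.27 to 0.02) with its 3 FC-A libraries also below DMSO. Libraries that separated downward like those of SPRY4, SPRY2 and DUSP5 were found in 7.44% of tested genes. DUSP1 was the one gene of the 9 with a positive value, 0.19 (-0.11 to 0.49, adjusted p 0.762), with reads of 242.3, 238.6 and 241.9, all above DMSO, a separation that 7.81% of tested genes showed. The other genes were SPRY1 at -0.07 (-0.35 to 0.20), DUSP4 at -0.12 (-0.38 to 0.14), SPRED1 at -0.11 (-0.30 to 0.08) and SPRED2 at -0.02 (-0.17 to 0.14), each with overlapping groups. As folds, the 95% interval of SPRED2 ran from 0.89 to 1.1 and that of DUSP6 from 0.689 to 0.951.

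Adding FC-A to IFNa gave a similar picture. None of the 9 was called between the Combination and IFNa in limma, edgeR or DESeq2, where limma called 53 genes or 0.331% of those tested. At an unadjusted p under 0.05 each of the 3 tools found 2 of the 9, beside 13.2% of all tested genes in limma. These were SPRY2, with 656, 706 and 678 reads with IFNa and 547, 628 and 553 in the Combination (log2 fold change -0.24, 95% interval -0.41 to -0.07, limma adjusted p 0.229), and DUSP4, with 698, 709 and 528.5 reads in the Combination (-0.28, -0.54 to -0.02, limma adjusted p 0.35). Both had every Combination library below every IFNa library, as 6.75% of tested genes did. DUSP5 differed by 0.03 (-0.11 to 0.17), SPRED2 by 0.02 (-0.14 to 0.17), SPRY1 by -0.02 (-0.30 to 0.25) and SPRY4 by -0.10 (-0.27 to 0.07).

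**Figure D3:**
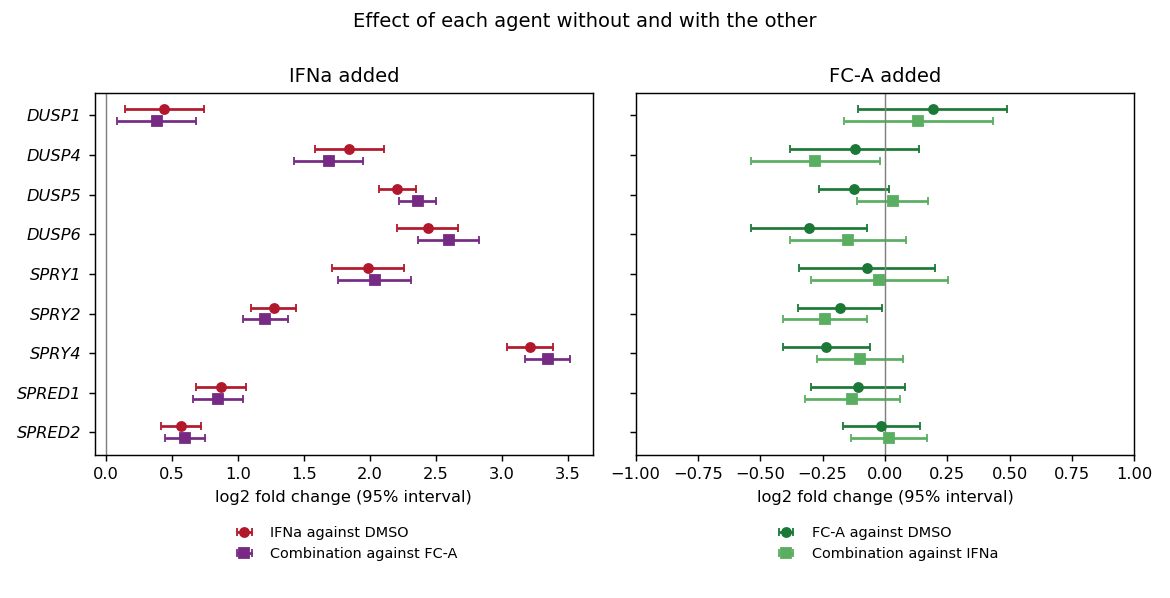
Log2 fold changes (horizontal axes) of the 9 genes with their 95% intervals from limma, for IFNa added without FC-A (circles) and with it (squares) on the left, and for FC-A added without IFNa (circles) and with it (squares) on the right. On the left all intervals lie above 0, from 0.44 for DUSP1 to 3.21 for SPRY4 without FC-A, and on the right they lie between -0.54 and 0.49.

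Whether FC-A altered the response to IFNa was tested as an interaction: the change with FC-A in the presence of IFNa, less the change in its absence. For the 9 genes the estimates ran from -0.16 for DUSP4 (95% interval -0.52 to 0.21) to 0.16 for DUSP6 (-0.17 to 0.49) on the log2 scale, and all limma adjusted p values were 1. None of the 9 reached an unadjusted p under 0.05 in limma, edgeR or DESeq2. Over all tested genes limma and edgeR called 0 and DESeq2 called 3, and 627 genes (3.92%) had an unadjusted limma p under 0.05. For SPRY4 the interval of the interaction ran from -0.11 to 0.38, for DUSP5 from -0.05 to 0.36, for SPRY2 from -0.30 to 0.18 and for DUSP1, the widest, from -0.48 to 0.37.

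Averaging the FC-A effect over the backgrounds with and without IFNa, a contrast added after the values had been seen, uses all 12 libraries. SPRY2 then had a log2 fold change of -0.21 (95% interval -0.33 to -0.09, limma adjusted p 0.0716), DUSP6 -0.23 (-0.39 to -0.06, adjusted p 0.155), SPRY4 -0.17 (-0.29 to -0.04, adjusted p 0.159) and DUSP4 -0.20 (-0.39 to -0.02, adjusted p 0.249). These 4 had an unadjusted p under 0.05, as did 17.1% of tested genes. No call was made among the 9 by limma or edgeR, where limma called 1.96% of all tested genes, while DESeq2 called SPRY2 (adjusted p 0.0458) among 634 genes in all. With the replicate number as a block limma called SPRY2 (adjusted p 0.0255) among 1675 genes, and without FC-A replicate 1 it called DUSP6 (0.028) and SPRY2 (0.0482) among 902 genes, beside 314 genes with all libraries and no block.

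Other genes of the pathway, from lists put together with earlier results of these data known, were compared between IFNa and DMSO in the same limma fit. There 25.4% of all tested genes were called higher and 46.9% in either direction. The RAS to ERK cascade and the JNK and p38 kinases below were called at about the latter share. Of 6 other DUSP genes for MAP kinases, 5 rose and 1, DUSP9, fell (log2 fold change -0.42, adjusted p 0.0464, with overlapping groups and no call under quantile normalization). DUSP2, a nuclear phosphatase of immune cells, went from 94.3 to 184 mean reads (0.96, adjusted p 0.000261), DUSP8 from 227 to 439.5 (0.96, adjusted p 6.36e-05) and DUSP7 from 493 to 712 (0.53, adjusted p 0.000553). DUSP8 shares sequence with the pseudogene DUSP8P5, which held 53.3 to 94.7 reads, so its value is less certain. The median of this list was 0.47. The RAS to ERK cascade itself had a median of 0.06: of 21 genes 8 rose, 2 fell and 11 were not called, and under quantile normalization 4 rose and 8 fell. Its largest changes were RASA2, a RAS inactivator (0.75), the adapter SHC1 (0.63) and the scaffold KSR1 (0.61). Of 11 JNK and p38 kinase genes 2 rose, 3 fell and 6 were not called (median -0.04), led by the p38 activator MAP2K3 (0.56), the p38 kinase MAPK13 (-0.50) and the JNK activator MAP2K4 (0.38). Of the 3 that fell, MAP2K6 (limma adjusted p 0.0509) and MAPK8 (0.379) lost the call without replicate 3 of every group. Of 5 Sprouty and SPRED binding partners 3 rose: CAV1, a membrane scaffold (1.44), the ubiquitin ligase SIAH2 (0.44) and the kinase TESK1 (0.35), all with adjusted p of at most 0.0014.

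Genes known to respond to ERK rose beside the 9, but ERK activity was not measured and the cause of the rise was not tested. Of 13 such genes 12 rose and 1, EPHA4, fell (-0.21, adjusted p 0.0489), with a median of 1.27. Of all tested genes 25.4% were called higher and 46.9% in either direction. FOSL1, a partner of JUN in the AP-1 factor, went from 164 to 1806 mean reads (3.46, adjusted p 2.64e-10), IER3 from 916 to 4901.5 (2.42, adjusted p 4.69e-08) and ETV5, an ETS factor, from 198 to 767 (1.95, adjusted p 3.93e-10). Under quantile normalization and in DESeq2 EGR3 lost its call, leaving 11. All 7 tested growth factor ligands rose (median 1.59). AREG and EREG, ligands of the EGF receptor, rose from 4.68 and 5.89 reads to 38.2 and 42.3 (2.79 and 2.67 on the log2 scale, which understates changes at so few reads). With FC-A alone AREG and EREG averaged 3.392 and 3.405 reads, so both met the minimum mean of 10 only through the groups with IFNa. Their rise was thus a condition of being tested, and the count and median of this list include them. FGF2 rose from 317 to 964 (1.59, adjusted p 3.35e-05). Of 10 tested receptor genes 2 rose and 5 fell, with MET up 2.69-fold (adjusted p 2.85e-10), FGFR2 down to 0.565-fold (adjusted p 1.4e-05) and FGFR3 down to 0.596-fold (adjusted p 1.14e-06). With FC-A alone the single gene called in any of these lists was MYC, which went from 888 to 646 mean reads (-0.46, adjusted p 0.00877). Of all tested genes 0.3% were called there. Between the Combination and IFNa limma called none of the listed genes. In the averaged FC-A contrast limma called MYC lower (-0.40, adjusted p 0.000807) and FOS higher (0.56, adjusted p 0.048), beside 1.96% of all tested genes. FOS lost that call in edgeR (adjusted p 0.0529).

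**Figure D4:**
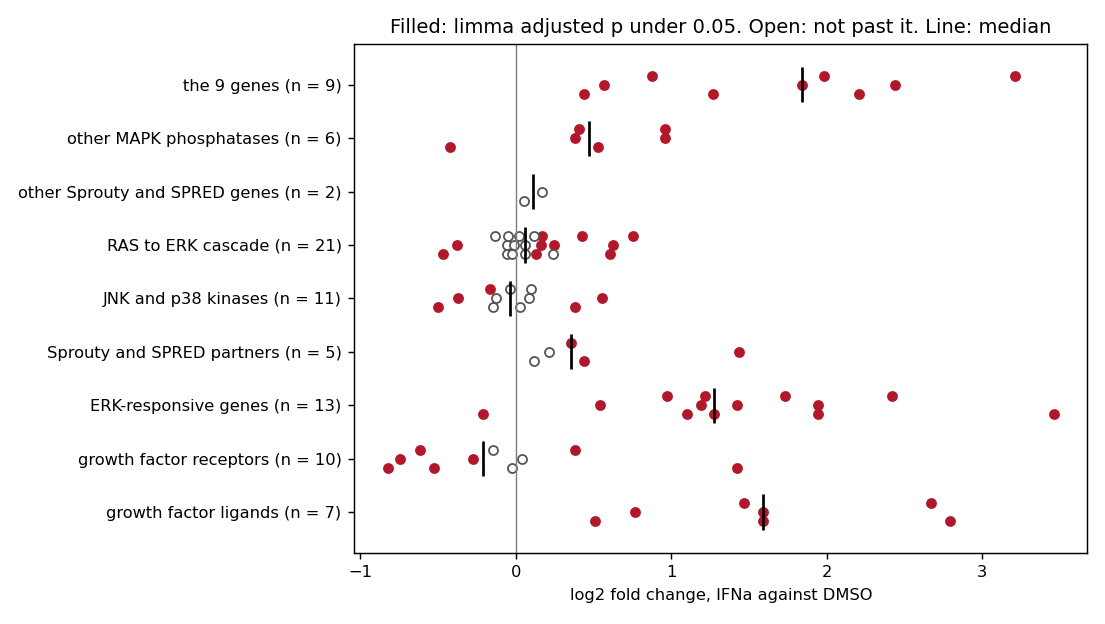
Log2 fold change of IFNa against DMSO (horizontal axis) for each tested gene of the 9 and of the other pathway lists, filled where the limma adjusted p is under 0.05 and open otherwise, with a vertical line at each list's median. The 9 genes (median 1.84), the ERK-responsive genes (1.27) and the ligands (1.59) lie to the right, while the RAS to ERK cascade centres near 0 (0.06).

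For each of the 9, the other genes whose levels followed it most closely over the 12 libraries were found by Pearson's r of the log2 values. The search covered 13030 genes with a mean of at least 50 reads. The 9 genes themselves were left out of it, so they were not compared with each other. Because the libraries split by IFNa, r mainly reflects that split, and it is given as a description. SPRY4 and DUSP5 had the same 3 nearest genes, MAFF (a small MAF factor), DNPEP (an aminopeptidase) and IL15RA (an interleukin receptor), with r from 0.998 to 0.999. DUSP6 was closest to KIAA0040 (0.998), FAS (0.997) and MAP2 (0.997), and DUSP4 to SOWAHC (0.996), SEC14L1 (0.996) and RUNX1 (0.995). SPRY1 was closest to OAS2, MST1R and CMTR1 (each 0.994), SPRY2 to PDP1 (0.993), PDGFRL (0.993) and SIPA1L1 (0.992), and SPRED1 to DHX15, PDE12 and PHLDB2 (each 0.993). OAS2 averaged 25.01 reads with DMSO, 23.53 with FC-A and 31541 with IFNa. It met the minimum of 50 only through the groups with IFNa, and r does not reflect how large its change was. SPRED2 was closest to GLI3 (0.992), SDE2 (0.988) and MAPK8IP2 (0.986). DUSP1 had no neighbour above 0.930, the r of B3GALNT1 and RBFOX2, and ANKRD52 came next at 0.923.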

How the data were processed

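The authors deposited signal values, which are normalized counts with 1 value per gene and library, from libraries made with a stranded poly(A) kit from 100 ng of RNA, per the labels. The log2 fold changes and p-values of the authors' deposited tables are in the column layout of DESeq2, per the file headers. A score column of the authors' deposited tables, the Wald statistic, was not used. Tools named in the submitters' processing notes are STAR 2.7.3, DESeq2 1.24.0, bcl2fastq 2.20 and FastQC, and the build is hg19. The program that counted reads is not given in the sources used here, nor is the annotation. Dividing by 1 factor per library turned 100% of values into whole reads (within 0.01), 31.2 to 39.5 M per library, which were used for edgeR and DESeq2.

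Groups came from the labels. The 15990 genes that averaged 10 or more normalized reads were kept, 12045 were left out, and values were analysed as log2(value + 1), which understates changes of low genes. limma 3.58.1 (R 4.3.3) fitted the 12 libraries with 1 mean per group and a variance trend. Tests were two-sided, with Benjamini-Hochberg adjustment over all tested genes and a threshold of 0.05. The fit was tried on simulated data with the same extra spread for every gene and no replicate effect, which the real libraries need not share. Over all genes tested, the standard error of a difference between groups had a median of 0.0924 (log2). The 9 genes and the lists were chosen with earlier results of these data known. From each other list up to 3 called genes with the largest change were named. Others (DUSP9, EPHA4, EGR3, MAP2K6, MAPK8, EGFR, SPRY3 and SPRED3) were named after their values were seen. The alternatives tried were a pseudocount of 0.5 or 8, no filter on low values, a minimum of 50, quantile or TMM scaling, fitting only the compared groups, the replicate block, leaving out each library or every replicate 3, edgeR 4.0.16 (quasi-likelihood), DESeq2 1.42.0 and the authors' tables. The contrast averaging FC-A over both backgrounds and edgeR without every replicate 3 were added after seeing the data. No coordinates of the counted genes are given, because the annotation at hand (GENCODE 29, GRCh38) is of another build, and exon lengths from it may differ from those counted.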

Additional observations from a re-analysis of the deposited data

How the results depend on the processing

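Of the 9 genes, 8 kept their upward call with IFNa against DMSO, with the Combination against DMSO and with the Combination against FC-A under all 25 alternatives. DUSP1 kept it under 22 of 25, 25 of 25 and 19 of 25. None of the 9 was called for FC-A against DMSO, the Combination against IFNa or the interaction under any alternative run. The averaged FC-A contrast called 0 of the 9, and 1 with the replicate block, 1 with DESeq2 and between 0 and 2 with one library left out. Its count over all genes, 314, was 1675 with the block, 634 with DESeq2, 1020 without replicate 3 of every group (1057 with edgeR) and between 132 and 952 with one library left out, the highest being 902 without FC-A replicate 1 and 952 without IFNa replicate 3. The other FC-A comparisons moved as well. FC-A against DMSO called 48 genes, and 26 with the compared groups only, 289 with the replicate block, 134 without replicate 3 of every group (150 with edgeR), 170 with DESeq2 and 155 in the authors' deposited table. With one library left out it called between 16 and 119: 16 to 19 without any DMSO library or FC-A replicate 2, 26 and 85 without IFNa replicates 1 and 3, and 119 without FC-A replicate 1. The Combination against IFNa called 53 genes, and 10 with the compared groups only, 1009 with the replicate block, 1189 without replicate 3 of every group (1273 with edgeR), 239 with DESeq2 and 231 in the authors' deposited table. With one library left out it called between 4 and 510: 4, 7 and 510 without IFNa replicates 1, 2 and 3, 92 and 90 without FC-A replicates 1 and 3, and 14 to 27 without any DMSO or Combination library or FC-A replicate 2. The interaction called 0 genes, and 1 with the replicate block, 1 without replicate 3 of every group (6 with edgeR) and 3 with DESeq2. The cause of these shifts was not tested. Quantile normalization moved the median of all genes for IFNa against DMSO to -0.0991, for the Combination against DMSO to -0.111 and against FC-A to -0.107. The share of calls that were higher then went from 54.2% to 36.6%, from 53.9% to 35.9% and from 54.4% to 36.5%. For the Combination against IFNa it went from 41.5% to 27.9%, and with DESeq2 to 59.4%.

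Deviations of same-numbered libraries from their group means were all positively correlated, at 0.0176 to 0.395. For replicate 3 the values were 0.188 to 0.395. Compared with the 3 libraries of another group, a library matched its own number best in 25 of 36 cases, which count each pair of groups in both directions. In every other group 5 of 12 libraries did so. Shared deviations were thus clearest for replicate 3, while the correlations of replicates 1 and 2 went down to 0.0176 and 0.0203. The labels do not say whether same-numbered libraries were handled together, and the main fit had no replicate block. The block changed no call of a single gene of the 9 other than SPRY2 in the averaged contrast. With 3 libraries per group, the data do not separate values inside a printed interval, such as -0.11 to 0.49 for DUSP1 with FC-A alone.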
